A study of Mus musculus with 8 samples.

Results

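RNA from peritoneal macrophages after 4 h of lipopolysaccharide (LPS) was compared between mice labelled Zc3h12a KO and wild-type mice. The values are the difference between 2 of the 8 arrays in the study, the labelled knockout array at 4 h minus the wild-type array at 4 h, across all 12540 measured genes of the 18193 named on the array. Where several probe sets read 1 gene, the brightest on average stands for it. Per the labels, both groups were macrophages drawn into the peritoneal cavity with thioglycollate, an irritant, and cultured with 100 ng/ml LPS, the bacterial cell wall component that TLR4 senses. The labels call the first strain Zc3h12a KO and the series gives it as Zc3h12a-/-. They call the other strain wild-type, and they state no allele, age, sex, number of animals or pooling. The remaining 6 arrays hold the same genotypes at 0, 1 and 2 h, again 1 array each.

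Zc3h12a encodes Regnase-1, an RNase with a CCCH zinc finger that cleaves stem-loops in the 3′ ends of inflammatory messenger RNAs, Il6 and Il12b among them. LPS itself induces Zc3h12a in macrophages. Regnase-1 is degraded after TLR signalling and made again later, so that its targets are held in check both before and after stimulation. Macrophages exposed to LPS pass through an early wave of immediate early genes, cytokines and chemokines and a later wave of interferon-driven genes, and the 4 h arrays fall in the later wave.

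With 1 array a side, a difference at 4 h has no replicate, so it is given as a value without a test. Values are log2, as deposited after RMA normalization, and a difference of 1 is 2-fold. The log2 RMA background of each array was taken as its highest bacterial control probe set, 3.17 on the labelled knockout array and 3.02 on the wild-type array at 4 h. Where 1 of the 2 arrays was not above it, the fold is given as "at least", against the higher of that background and the gene's own value. The 2 arrays at 4 h correlated at r = 0.983 over the measured genes, within a range of 0.899 to 0.984 for all pairs of the 8 arrays. Macrophage markers were high on both, with log2 values for Cd68 of 12.73 in the labelled knockout and 12.60 in wild type, and for Csf1r of 12.64 in the labelled knockout and 12.66 in wild type. The log2 excess of the 3′ over the 5′ probe set of Actb, which grows as RNA breaks down, was 2.30 on the labelled knockout array and 2.16 on the wild-type array. It was higher in the labelled knockout at the earlier times too, most at 0 h, at 3.11 against 2.64. The excess for Gapdh was higher there at 0 h only, at 3.31 against 3.01, and was 2.90 against 2.98 at 4 h. The part of RNA quality in the tests over 0, 1 and 2 h was not tested.

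The labels could not be checked at Zc3h12a. Its main probe set had log2 values of 6.73, 7.70, 8.75 and 8.50 at 0, 1, 2 and 4 h on the labelled knockout arrays, against 6.12, 8.02, 8.87 and 8.57 on the wild-type arrays. A second probe set read 3.15 on the labelled knockout array and 3.31 on the wild-type array at 4 h. The signal was thus higher after LPS on both, and the sources used here do not say where the probes lie relative to the deleted part. The animals are therefore called labelled knockout throughout.

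At 4 h, 486 of 12540 genes (3.88%) lay at least 2-fold apart. Of these, 210 (1.67%) were higher and 276 (2.2%) were lower in the labelled knockout array. Counts in the gene lists below stand beside these shares. The median difference over all genes was -0.05, and 9 in 10 genes fell between -0.72 and 0.56. Differences of at least 4-fold numbered 55 upward and 25 downward, and of at least 16-fold 9 upward and 2 downward, so the far end of the distribution held more higher than lower genes. Of 171 further probe sets of these genes with signal well above background, 163 differed in the same direction, 97 of them by at least 2-fold, and 0 differed by 2-fold in the opposite direction. After cyclic loess between arrays, 239 genes were higher and 213 lower, so the balance of directions depends on the scaling. It depended more on a second scaling, in which each array was centred on the median level of 10 housekeeping genes: 134 genes were then higher and 717 lower, or 15.7% higher against 43.2% as deposited. With it the all-gene median was -0.38, a shift of -0.32, which turned the sign of 20 of 44 gene list medians, those of inflammatory cytokines, CC chemokines and reported Regnase-1 targets among them. The 10 genes themselves differed by a median of 0.09 at 4 h. Their largest difference was 1.38, for Tfrc, the transferrin receptor, which is also in the list of reported Regnase-1 targets. The part of Tfrc in this shift was not tested. Another centring, on the median deviation of the same genes from their own means, was added later. It gave 212 genes higher and 274 lower and turned the sign of 0 list medians. Directions of lists near the all-gene median are therefore relative to that median, and 0 lists with a median of at least 2-fold turned.

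**Figure D1:**
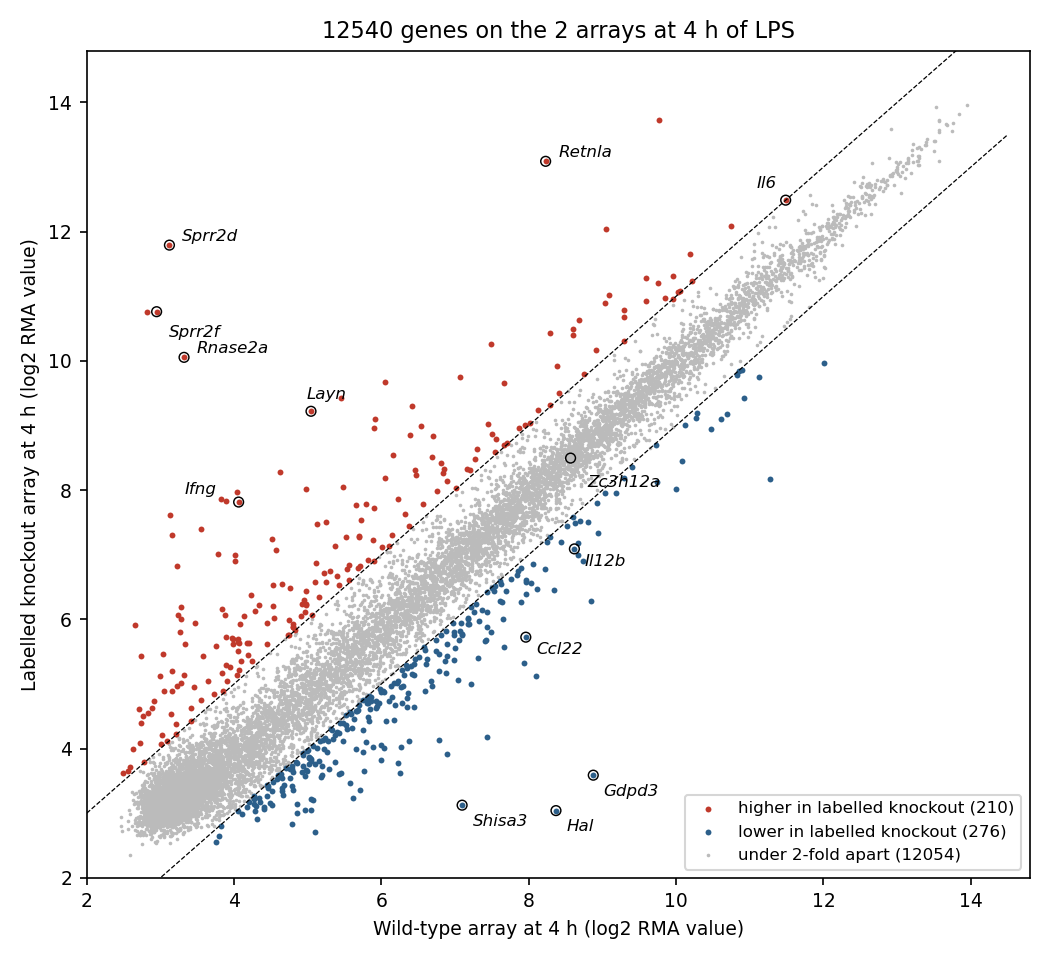
Log2 RMA values of 12540 genes on the wild-type array (horizontal axis) and the labelled knockout array (vertical axis) at 4 h of LPS, 1 point per gene, with dashed lines at 2-fold. The red points are the 210 genes higher and the blue points the 276 genes lower by at least 2-fold in the labelled knockout array; Sprr2d, Sprr2f and Rnase2a lie farthest above the diagonal of the genes named in the plot, and Hal, Gdpd3 and Shisa3 farthest below it.

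The differences at 4 h had arisen at different times. Among the 210 higher genes, 93 had been at least 2-fold higher at every time from 0 h on, 21 from 1 h on, 29 from 2 h on, and 67 were so placed at 4 h without an unbroken run before it. Among the 276 lower genes the corresponding numbers were 57, 15, 69 and 135. The other times had 261 higher (2.08%) and 213 lower (1.7%) genes at 0 h, 253 (2.02%) and 169 (1.35%) at 1 h, and 247 (1.97%) and 356 (2.84%) at 2 h. Of the 474 genes (3.78%) apart before LPS, 207 were still apart the same way at 4 h, 0 had turned to the opposite side, and 182 had come within 1.5-fold.

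The 6 earlier arrays are other samples than the 4 h pair and were tested on their own. The labels do not say whether the times of a genotype came from separate animals. Agreement between times is therefore not a replicate of the genotype difference. In limma with time as a block and Benjamini-Hochberg adjustment, 942 genes (7.51%) differed by genotype over 0, 1 and 2 h, 388 (3.09%) with higher and 554 (4.42%) with lower values in the labelled knockout. Of the 486 genes apart at 4 h, 283 (58.2%) were called in the same direction over the earlier times, and these were 30.0% of the 942. Only Pfn2, a profilin, which binds actin, was called in the opposite direction, on a probe set that can match several transcripts, and without such probe sets it differed by -0.16 at 4 h. The split also depends on the scaling, since with the housekeeping centring 250 genes were called higher and 10173 lower. With the centring on deviations of the same genes, 381 were called higher and 641 lower. The call count rests on few arrays: without either 0 h array it was 77 higher and 42 lower, and without either 2 h array 256 higher and 186 lower. With time as a block, leaving out 1 array also takes its partner at that time out of the comparison. Fewer residual degrees of freedom then remain, which by itself lowers the number of calls. Across all 12540 genes the difference at 4 h and the mean difference over 0, 1 and 2 h correlated at Pearson r = 0.722 and Spearman rho = 0.575, where genes are not independent replicates.

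**Figure D2:**
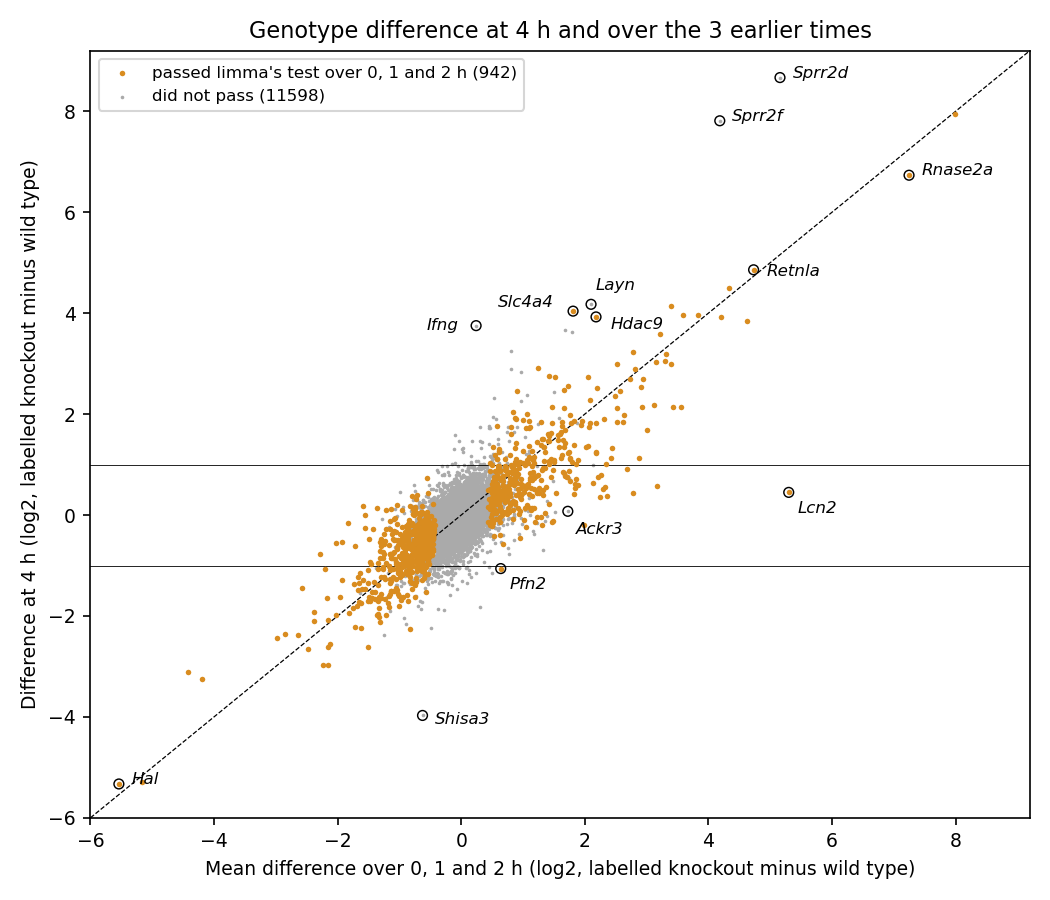
Difference at 4 h (vertical axis) against the mean difference over 0, 1 and 2 h (horizontal axis), both log2, labelled knockout minus wild type, 1 point per gene. Orange points are the 942 genes that passed limma's test over 0, 1 and 2 h; Rnase2a, Retnla and Hal lie near the dashed line of equal difference, Sprr2d, Sprr2f and Ifng above it, and Lcn2 and Shisa3 below it.

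The share of genes apart varied with the response to LPS. Of 775 genes at least 2-fold higher by 1 or 2 h than at 0 h on the wild-type arrays, 73 (9.42%) were at least 2-fold apart at 4 h, 37 higher and 36 lower in the labelled knockout array. The share was 2.86% (42 of 1470) for genes at least 2-fold lower after LPS and 3.60% (371 of 10295) for the rest. Level matters to such counts: 7.42% of the genes in the middle level group, with means of 3.81 to 6.99 over the 8 arrays, were apart, against 1.20% of those below and 3.01% of those above. These shares were not tested.

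The largest difference at 4 h was in small proline-rich genes, which encode cross-linked proteins of the cornified envelope of skin and are known as barrier genes of epithelia. Sprr2d had log2 values of 3.33, 9.49, 11.88 and 11.79 at 0, 1, 2 and 4 h on the labelled knockout arrays, against 2.77, 2.97, 3.48 and 3.12 on the wild-type arrays. Sprr2f had 3.30, 7.83, 10.92 and 10.76 on the labelled knockout arrays, against 2.93, 3.31, 3.26 and 2.95 on the wild-type arrays. Both genes were near background in both genotypes before LPS and stayed there on the wild-type arrays, while on the labelled knockout arrays they stood far above it at 1, 2 and 4 h. At 4 h Sprr2d was 407-fold higher in the labelled knockout array and Sprr2f at least 215-fold higher.

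Other members of the cluster differed less. Sprr2k had log2 values of 3.36, 3.92, 5.19 and 6.07 on the labelled knockout arrays at 0, 1, 2 and 4 h, against 3.17, 3.06, 3.36 and 3.25 on the wild-type arrays. Sprr2h had 3.27, 3.65, 6.57 and 5.47 on the labelled knockout arrays, against 2.92, 3.19, 2.90 and 3.04 on the wild-type arrays. Sprr1a, at 3.36 in the labelled knockout and 3.36 in wild type, did not differ visibly and lay close to background. Of the 8 members named on the array, these 4 were at least 2-fold higher at 4 h, beside 1.67% of all genes. Sprr1b, Sprr2i and Sprr3 did not pass the filter on low values and differed by -0.02, 0.34 and 0.07, and 5 listed members were not named by a single probe set. The 4 passed that filter mainly through the labelled knockout arrays, where they were high, so the median difference describes the members kept: it was 2.83 over the 5 that passed, 1.39 over all 8, and 5.32 with probe sets of single match. Copies of the family are closely similar in sequence, and Sprr2h was read by a probe set that can match several transcripts, so signal could be shared between copies. Over 0, 1 and 2 h the Sprr2d difference averaged 5.16 (SE 1.5, limma's adjusted p = 0.114), where growth of the difference with time counts as error.

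Since 4 of the Sprr genes were higher together and 1 was level, the 250 bases before their RefSeq starts (GRCm38.p6) are shown 5′ to 3′ on each gene's strand. All 5 measured members had an entry, all on chromosome 3, and Plet1, described next, is added from chromosome 9. The windows are chr3:92338890-92339139 (+ strand) for Sprr2d, chr3:92364937-92365186 (+ strand) for Sprr2f, chr3:92432332-92432581 (+ strand) for Sprr2k, chr3:92385435-92385684 (+ strand) for Sprr2h, chr3:92485882-92486131 (- strand) for Sprr1a and chr9:50494275-50494524 (+ strand) for Plet1. Capitals mark TGANTCA, a loose form of the AP-1 site with any base (N) in the middle. They also mark ATTTGCAT, the octamer bound by POU factors, and the TATA box TATAAA, all searched on both strands. The octamer was chosen after the sequences were seen.
Sprr2d: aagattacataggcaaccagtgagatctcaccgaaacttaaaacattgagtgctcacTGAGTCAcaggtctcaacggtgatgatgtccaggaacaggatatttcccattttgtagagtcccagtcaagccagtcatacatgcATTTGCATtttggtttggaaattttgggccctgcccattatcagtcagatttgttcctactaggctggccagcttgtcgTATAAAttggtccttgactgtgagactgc
Sprr2f: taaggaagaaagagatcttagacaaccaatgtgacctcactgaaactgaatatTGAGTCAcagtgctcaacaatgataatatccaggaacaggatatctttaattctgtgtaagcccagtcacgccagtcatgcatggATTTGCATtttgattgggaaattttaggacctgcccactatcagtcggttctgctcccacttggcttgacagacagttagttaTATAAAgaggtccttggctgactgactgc
Sprr2k: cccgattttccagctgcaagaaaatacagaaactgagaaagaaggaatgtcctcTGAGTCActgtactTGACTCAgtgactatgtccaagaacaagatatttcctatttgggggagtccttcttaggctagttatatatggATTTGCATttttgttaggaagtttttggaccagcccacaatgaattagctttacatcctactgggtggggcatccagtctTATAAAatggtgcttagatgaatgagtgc
Sprr2h: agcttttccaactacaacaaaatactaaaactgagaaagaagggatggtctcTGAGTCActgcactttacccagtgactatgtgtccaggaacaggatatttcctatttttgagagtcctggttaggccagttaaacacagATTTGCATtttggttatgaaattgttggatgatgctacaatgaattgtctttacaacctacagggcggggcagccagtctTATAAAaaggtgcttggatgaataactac
Sprr1a: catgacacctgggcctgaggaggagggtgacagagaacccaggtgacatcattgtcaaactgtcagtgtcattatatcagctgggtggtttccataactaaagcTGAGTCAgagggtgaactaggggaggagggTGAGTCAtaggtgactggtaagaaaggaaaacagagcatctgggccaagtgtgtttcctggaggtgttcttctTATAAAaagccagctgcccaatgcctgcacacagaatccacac
Plet1: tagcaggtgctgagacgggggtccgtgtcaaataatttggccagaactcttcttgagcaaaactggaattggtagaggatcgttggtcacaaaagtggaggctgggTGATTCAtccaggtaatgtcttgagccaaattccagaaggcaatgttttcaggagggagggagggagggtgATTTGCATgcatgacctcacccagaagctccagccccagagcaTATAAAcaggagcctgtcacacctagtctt

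The 4 Sprr2 windows held the same 3 motifs in the same order. TGANTCA began at -193 in Sprr2d, -197 in Sprr2f, -196 and again -182 in Sprr2k, and -198 in Sprr2h, counted from the start. The octamer began at -108, -112, -109 and -109 in that order of genes, and TATAAA at -29 in each. The Sprr1a window held TGANTCA at -146 and -116 and TATAAA at -43, without the octamer letters. Over 32851 such windows of the mouse genome, TGANTCA was found in 6.75%, ATTTGCAT in 1.6% and TATAAA in 12.4%. The 4 Sprr2 promoters are also alike as a whole. Their pairs matched at 60.1% (Sprr2f with Sprr2h) to 80.6% (Sprr2k with Sprr2h) of aligned bases, with 71.1% for Sprr2d with Sprr2f. Sprr2d matched Sprr1a at 50.4%, near the 50.7% of Sprr2f with Plet1. A match of letters is a description of these windows and not a measured binding site.

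Only 14 of 27025 genes held all 3 motifs in the window. The octamer had been chosen after the Sprr2 windows were seen, so the return of the Sprr2 genes shown was fixed in advance. Of the 14, 7 were Sprr genes (Sprr2b, Sprr2d, Sprr2e, Sprr2f, Sprr2h, Sprr2i and Sprr2k), and the remaining 7 included Plet1, a surface protein of placental and epithelial progenitors. Plet1 had log2 values of 3.07, 5.19, 9.95 and 9.68 at 0, 1, 2 and 4 h on the labelled knockout arrays, against 2.78, 3.67, 6.36 and 6.05 on the wild-type arrays. It was higher after LPS on both sets and stood 3.63 higher at 4 h in the labelled knockout array. In its window TGANTCA began at -144 and read TGATTCA, where the Sprr windows shown had TGAGTCA or TGACTCA. The octamer began at -73 and TATAAA at -30, while identity of the Plet1 window to the Sprr windows was 47.9% to 50.7%. Sprr2i, with the same motifs, was below background at 4 h on both arrays, at 2.97 in the labelled knockout and 2.63 in wild type. Elf1 and Plppr2, also in the 14, were measured and differed by -0.15 and 0.01 at 4 h, so the 3 motifs together did not mark a difference in every gene. No values are given here for Duoxa2, Skint11, Gm39922 and Gm42279, the others of the 14. Plet1, Elf1 and Plppr2 were chosen after the search was made.

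Npy, which encodes neuropeptide Y, was among the widest differences. It was at 10.66, 10.93, 10.76 and 10.76 on the labelled knockout arrays at 0, 1, 2 and 4 h, against 2.84, 2.78, 2.74 and 2.82 on the wild-type arrays, which were below background at every time. At 4 h the labelled knockout array was thus at least 215-fold higher, and the difference over 0, 1 and 2 h averaged 8.0 (SE 0.10, limma's adjusted p = 4.41e-05).

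Other peptide genes became apart only after LPS. Penk, the enkephalin precursor, had 4.99, 5.34, 8.02 and 8.29 on the labelled knockout arrays at 0, 1, 2 and 4 h, against 4.31, 4.28, 4.71 and 4.63 on the wild-type arrays. Nts, the neurotensin precursor, had 3.40, 3.92, 6.51 and 6.90 on the labelled knockout arrays, against 3.55, 3.79, 4.10 and 4.01 on the wild-type arrays. Both reached their highest value at 4 h in the labelled knockout, and the wild-type arrays stayed within a narrow band. Adm, which encodes the vasodilator adrenomedullin, was higher after LPS in both genotypes and stood at 10.63 in the labelled knockout and 8.68 in wild type. Penk and Nts were chosen after their values were seen.

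Calcr, the calcitonin receptor and a reported Regnase-1 target, had log2 values of 2.90, 2.91, 5.19 and 5.91 at 0, 1, 2 and 4 h on the labelled knockout arrays, against 2.68, 2.89, 3.01 and 2.66 on the wild-type arrays. Signal appeared from 2 h in the labelled knockout and at no time in wild type, and the gene was at least 7.45-fold higher at 4 h. Layn encodes layilin, a hyaluronan receptor of the cell surface. It had 5.53, 7.15, 9.41 and 9.22 on the labelled knockout arrays, against 5.08, 5.08, 5.63 and 5.04 on the wild-type arrays, and its second probe set at 4 h also differed, by 2.53. Slc4a4, a sodium bicarbonate cotransporter, had 4.30, 4.58, 5.40 and 7.86 on the labelled knockout arrays, against 3.07, 3.0, 2.78 and 3.82 on the wild-type arrays, while its 4 dimmer probe sets differed by -0.18 to 0.83 at 4 h. Vmn2r26, annotated as a vomeronasal receptor, read 7.62 in the labelled knockout and 3.13 in wild type, a difference present since 0 h.

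**Figure D3:**
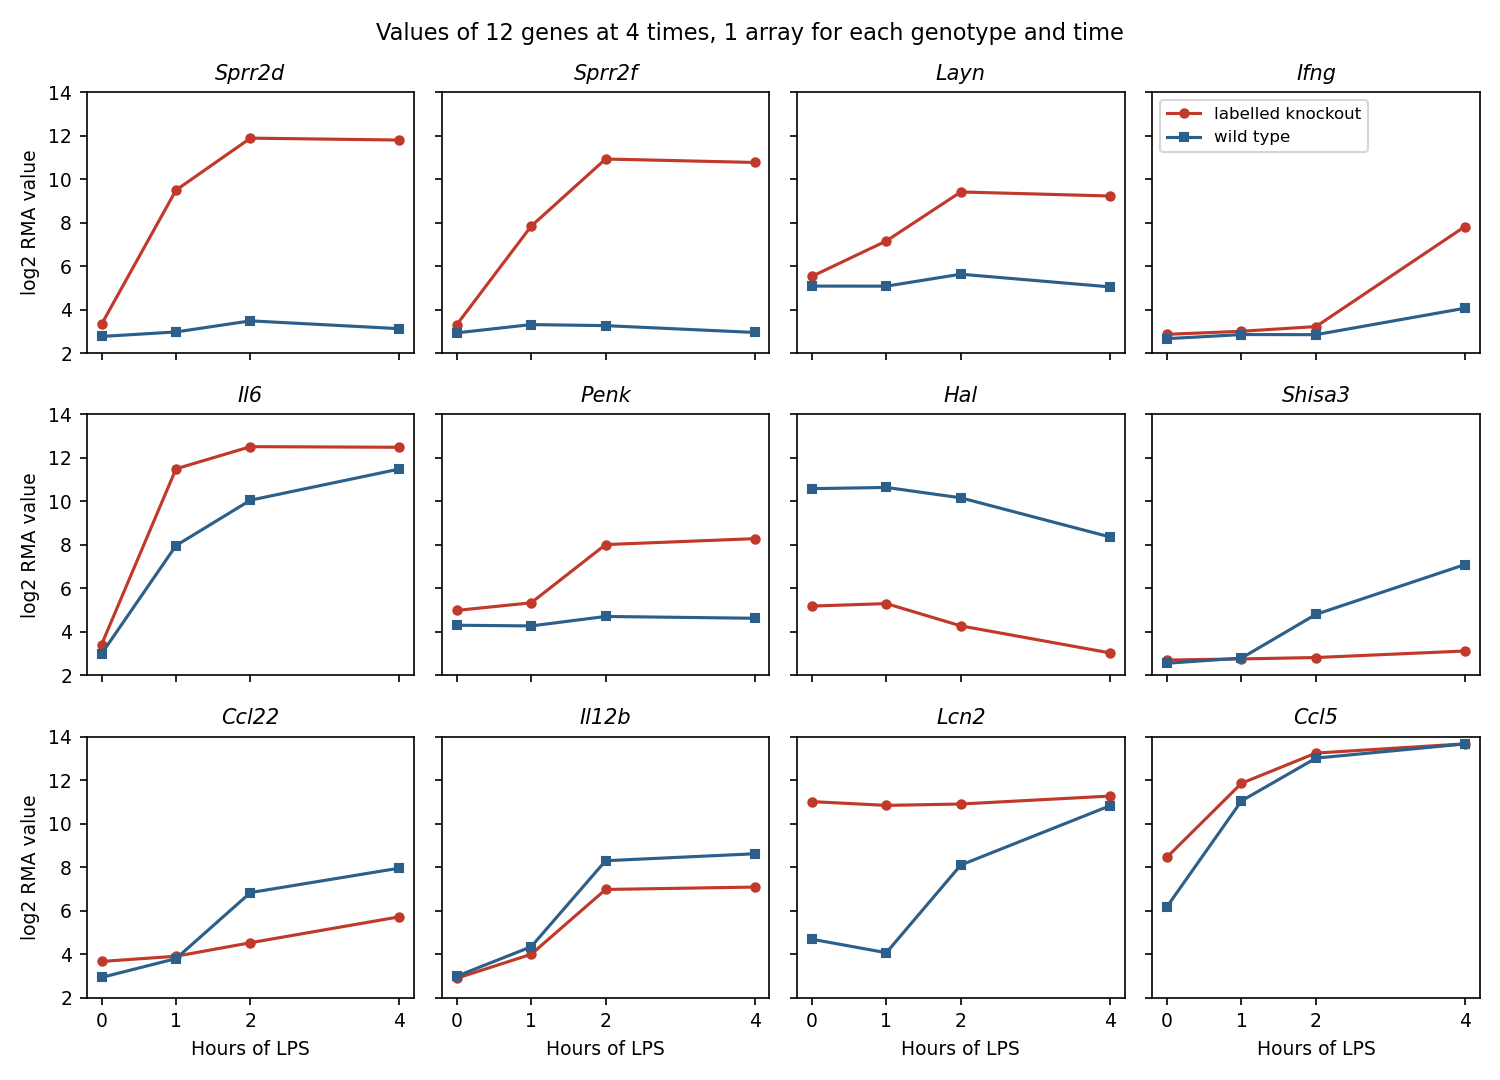
Log2 RMA values of 12 genes at 0, 1, 2 and 4 h of LPS, with labelled knockout arrays as red circles and wild-type arrays as blue squares, 1 array per point. Sprr2d, Sprr2f, Layn and Penk separate after LPS, Ifng separates at 4 h, Hal is apart throughout, Shisa3, Ccl22 and Il12b are lower in the labelled knockout from 2 h, and Lcn2 and Ccl5 meet by 4 h.

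Cytokine genes as a group did not lie apart at 4 h. Of 21 measured inflammatory cytokines, 2 were at least 2-fold higher and 1 lower, with a median of 0.06 beside -0.05 over all genes. Il6 had log2 values of 3.42, 11.50, 12.52 and 12.49 on the labelled knockout arrays at 0, 1, 2 and 4 h, against 3.0, 7.97, 10.06 and 11.49 on the wild-type arrays. Its difference was 0.42, 3.53 and 2.46 at 0, 1 and 2 h and 1.00 at 4 h, the value of a gene just inside the 2-fold limit and 0.68 with the housekeeping centring. The labelled knockout arrays were already at their highest level at 2 h, while the wild-type arrays were still higher at 4 h than at 2 h.

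Il12b encodes the p40 subunit shared by IL-12 and IL-23. It was lower in the labelled knockout, at 2.90, 4.0, 6.98 and 7.09 on those arrays and 2.99, 4.35, 8.30 and 8.62 on the wild-type arrays, and its second probe set differed by -1.38 at 4 h. Csf2, the gene of GM-CSF, was level at 2 h and apart at 4 h: it had 3.09, 5.92, 8.83 and 7.28 on the labelled knockout arrays, against 3.28, 6.19, 8.65 and 5.69 on the wild-type arrays. Ebi3, a subunit of IL-27, read 8.66 in the labelled knockout and 9.65 in wild type. Tnf, at 11.64 in the labelled knockout and 12.01 in wild type, Il1b, at 12.91 in the labelled knockout and 13.19 in wild type, and Il10, at 4.80 in the labelled knockout and 4.89 in wild type, were all within 1.5-fold. Of these, Il10 had been far lower on the labelled knockout array at 1 h, at 4.37 against 7.21 on the wild-type array.

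Ifng lay apart mainly at 4 h, with 1 array a side. It encodes interferon gamma, a macrophage-activating cytokine made chiefly by T and NK cells. On the labelled knockout arrays it had 2.86, 3.0, 3.22 and 7.82 at 0, 1, 2 and 4 h, against 2.66, 2.85, 2.85 and 4.06 on the wild-type arrays. All arrays up to 2 h were near background, and the 4 h values differed by 3.75. The SE given next rests on those arrays near background, and the 4 h pair adds no spread to it. The departure of the 4 h difference from the earlier ones was 3.51 (SE 0.19), with limma's adjusted p = 0.104, and between 0.00807 and 0.987 over the alternatives tried.

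Markers of T and NK cells are given beside it. Of 6 measured, 1 was higher by at least 2-fold. Summed linear values over the 11 named on the array were 170 in the labelled knockout and 120 in wild type, apart mainly through Cd3e. Cd3e read 6.35 in the labelled knockout and 5.16 in wild type, and had read 5.89 and 4.70 at 0 h. Cd3d read 3.64 in the labelled knockout and 3.25 in wild type at 4 h. Cd3g and Ncr1 were below background on both arrays, and Cd8a, Gzmb and Prf1 did not pass the filter. The part of these cells in the Ifng value was not tested.

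Chemokines differed in a few members. Of 14 CC chemokines, 2 were at least 2-fold higher and 1 lower, with a median of 0.01. Ccl24, an eosinophil attractant also called eotaxin-2, had 7.62, 7.87, 7.92 and 7.83 on the labelled knockout arrays, against 3.58, 3.47, 3.76 and 3.90 on the wild-type arrays, a gap of 3.93 at 4 h that changed little with LPS. Ccl22, a CCR4 ligand, had 3.67, 3.91, 4.53 and 5.72 on the labelled knockout arrays, against 2.94, 3.80, 6.84 and 7.96 on the wild-type arrays. Ccl17, the other CCR4 ligand, went the other way, at 9.31 in the labelled knockout and 8.29 in wild type.

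Among 13 CXC chemokines, 2 were at least 2-fold higher and 0 lower, with a median of -0.20. Cxcl11, a CXCR3 ligand induced by interferons, had 3.39, 3.32, 6.97 and 10.50 on the labelled knockout arrays, against 2.92, 3.16, 5.93 and 8.60 on the wild-type arrays. Cxcl13, a B cell attractant, stood at 12.09 in the labelled knockout and 10.75 in wild type. The neutrophil attractant Cxcl3 read 9.04 in the labelled knockout and 9.70 in wild type. Of the 9 measured chemokine and chemoattractant receptors, and of 10 TNF superfamily ligands and receptors, 0 lay at least 2-fold apart.

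Messages reported to be cleaved by Regnase-1 showed no common direction at 4 h. Of 18 measured, 4 were at least 2-fold higher and 1 was lower, beside 1.67% and 2.2% of all genes. Differences were positive in 10 and negative in 8, with a median of 0.09. The 4 higher genes were Calcr, Il6, Icos and Tfrc. Icos, a T cell costimulator, read 6.13 in the labelled knockout and 4.28 in wild type, and Tfrc, the transferrin receptor, 10.68 in the labelled knockout and 9.30 in wild type. Over 0, 1 and 2 h both had passed limma's test, Icos with a mean difference of 1.10 (SE 0.15, adjusted p = 0.0204) and Tfrc with 1.30 (SE 0.11, adjusted p = 0.00591). Of the 18, 4 had passed that test as higher and 0 as lower, beside 3.09% and 4.42% of all genes. Without either 0 h array, 1 passed as higher and 0 as lower. The list mixes targets reported in T cells, B cells and macrophages, and Il2 did not pass the filter.

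Some targets were less far apart at 4 h than before. Egln3, a prolyl hydroxylase that marks HIF for degradation, differed by 1.87, 1.66 and 1.46 at 0, 1 and 2 h and by 0.84 at 4 h. Lcn2, the siderophore-binding protein lipocalin 2, had 11.02, 10.84, 10.91 and 11.27 on the labelled knockout arrays at 0, 1, 2 and 4 h, against 4.69, 4.07, 8.10 and 10.82 on the wild-type arrays. The labelled knockout value was almost constant, and the wild-type value reached it after LPS. Ccl5, chosen after its values were seen, had 8.47, 11.86, 13.25 and 13.67 on the labelled knockout arrays, against 6.19, 11.05, 13.02 and 13.67 on the wild-type arrays. Its values were higher after LPS in both genotypes and met at 4 h.

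Interferon-stimulated genes were almost level at 4 h. Of 29 measured, 0 were at least 2-fold higher and 1 was lower, with a median of -0.13. The exception, Ifi27l2a, an interferon-induced membrane protein, was lower before LPS too, at 5.32, 5.79, 5.71 and 8.17 on the labelled knockout arrays, against 10.02, 9.84, 10.20 and 11.28 on the wild-type arrays. Over 0, 1 and 2 h, 6 of the 29 had passed limma's test as lower and 1 as higher, beside 4.42% and 3.09% of all genes, and without either 0 h array 1 passed as lower and 0 as higher. The 9 interferon-inducible GTPases, which act on vacuoles of intracellular microbes, had medians of 0.67, 0.91 and 0.22 at 0, 1 and 2 h and 0.21 at 4 h. Iigp1 among them differed by 2.04, 3.14 and 1.62 at 0, 1 and 2 h, and at 4 h read 12.07 in the labelled knockout and 11.27 in wild type.

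Regulators of transcription and signalling differed singly. Irf4, a factor of alternative activation, read 6.72 in the labelled knockout and 5.22 in wild type. Irf8, which directs macrophage and dendritic cell genes, was lower at 0, 1 and 2 h, by -0.70, -0.47 and -0.49, and read 8.94 in the labelled knockout and 8.21 in wild type at 4 h. Stat4, which transmits IL-12 signals, was at 3.43 in the labelled knockout and 4.68 in wild type. Cish, a STAT5-induced inhibitor of cytokine receptors, had 3.72, 7.88, 9.34 and 8.23 on the labelled knockout arrays, against 2.73, 5.47, 7.84 and 6.47 on the wild-type arrays. Id3, an inhibitor of helix-loop-helix factors, was below background on the labelled knockout array at 4 h and at least 3.79-fold lower than in wild type. Its values were 5.44, 6.25, 3.41 and 2.71 on the labelled knockout arrays, against 5.40, 8.17, 5.28 and 5.09 on the wild-type arrays.

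Of 17 measured NF-kB targets and feedback regulators, 15 had negative differences, 1 was at least 2-fold lower, and the median was -0.21, beside 56.5% negative and a median of -0.05 over all genes. Other lists had as many negative members, 11 of 12 for MHC class I and immunoproteasome genes and 18 of 20 for respiratory chain subunits, and these counts were not tested. Traf1, an adaptor of TNF receptors, was at 9.11 in the labelled knockout and 10.28 in wild type, and Nfkbia, the inhibitor of NF-kB, at 13.02 in the labelled knockout and 13.08 in wild type. Immediate early genes had 0 of 27 at least 2-fold apart. MAP kinase phosphatases, which switch off ERK, p38 and JNK, had 3 of 11 lower and 0 higher, beside 2.2% and 1.67% of all genes. Their median was -0.16. Dusp7 stood at 5.20 in the labelled knockout and 6.79 in wild type. Dusp6 was at 6.86 in the labelled knockout and 8.06 in wild type, and Dusp2 at 5.53 in the labelled knockout and 6.59 in wild type. Among 18 CCCH zinc finger and mRNA decay factors, which include relatives of Regnase-1, 1 was lower by 2-fold, Zfp36l2, at 8.70 in the labelled knockout and 9.73 in wild type, and 0 were higher. Dusp2 and Zfp36l2 came to -0.97 and -0.99 after cyclic loess, just under the 2-fold limit.

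**Figure D4:**
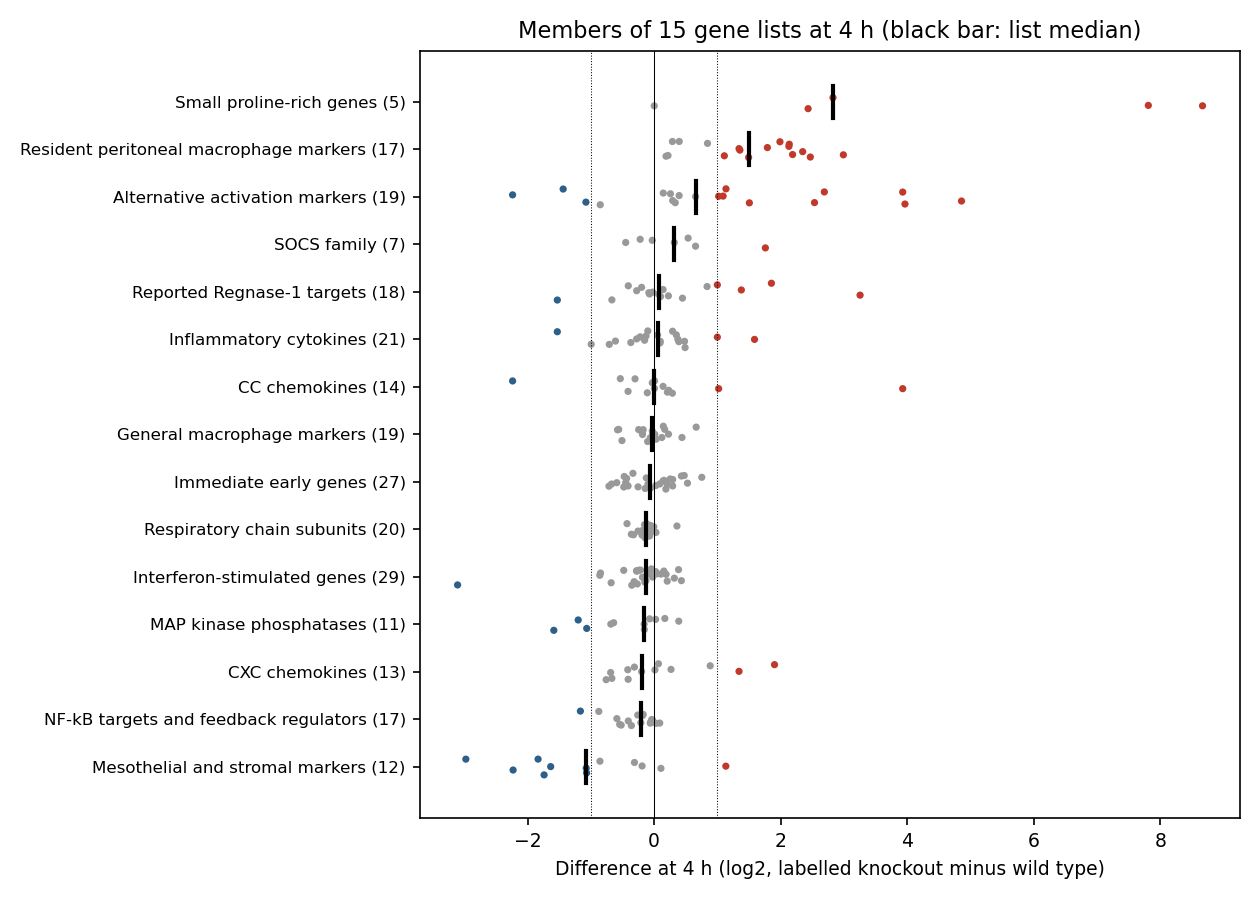
Difference at 4 h (horizontal axis, log2, labelled knockout minus wild type) of each measured member of 15 gene lists, 1 point per gene, with the list median as a black bar and the number measured in brackets. Red points are higher and blue points lower by at least 2-fold in the labelled knockout array; small proline-rich genes have the highest median at 2.83 and mesothelial and stromal markers the lowest at -1.07, or 1.39 and -0.63 with no filter on low values.

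Genes of alternative activation, the programme that IL-4 induces in macrophages, were mostly higher. Of 19 measured, 9 were at least 2-fold higher and 3 lower, beside 1.67% and 2.2% of all genes, with a median of 0.66. That median was 0.33 with the housekeeping centring, 0.40 on the mean of probe sets and 1.09 with probe sets of single match. Retnla, the secreted protein RELM alpha, had 13.28, 13.20, 13.11 and 13.09 on the labelled knockout arrays, against 8.63, 8.43, 8.33 and 8.23 on the wild-type arrays. Chil3, also called Ym1, was at 13.73 in the labelled knockout and 9.77 in wild type, and Arg1, which turns arginine into ornithine, at 9.75 in the labelled knockout and 7.06 in wild type. These differences stood before LPS: over 0, 1 and 2 h Retnla differed by 4.73 (SE 0.09, limma's adjusted p = 0.000188) and Arg1 by 2.73 (SE 0.13, adjusted p = 0.00179). Ccl22, Stab1 and Pparg were the lower members, Stab1 at 5.56 in the labelled knockout and 6.99 in wild type.

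Markers of resident peritoneal macrophages, the long-lived cells that thioglycollate normally displaces, were higher together. Of 17 measured, 12 were at least 2-fold higher and 0 were lower, beside 1.67% and 2.2% of all genes. All 17 had a positive sign, with a median of 1.49. Their summed linear values were 34797 on the labelled knockout array and 19188 on the wild-type array. Prg4, or lubricin, was at 12.04 in the labelled knockout and 9.05 in wild type, Timd4, a phosphatidylserine receptor, at 8.86 in the labelled knockout and 6.39 in wild type, and F5, coagulation factor V, at 7.47 in the labelled knockout and 5.12 in wild type. Gata6, the factor that defines these cells, was low on both arrays, at 3.59 in the labelled knockout and 3.37 in wild type. Over the earlier times 15 of the 17 passed limma's test as higher, beside 3.09% of all genes, and 10 did so without either 0 h array. In RNA of mixed cells, more cells of a type and more RNA per cell cannot be told apart. Of 19 general macrophage markers, 0 were at least 2-fold apart.

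Mesothelial and stromal markers were mostly lower. Of 12 measured, 7 were at least 2-fold lower and 1 higher, beside 2.2% and 1.67% of all genes, with a median of -1.07. The median was -0.63 with no filter and -1.69 with the filter at the 75th percentile, and it lay between -0.91 and -0.99 after cyclic loess and under the other probe set rules. Summed linear values over the 16 members named on the array were 738 on the labelled knockout array and 2228 on the wild-type array. Col6a2, a collagen VI chain, was at 3.92 in the labelled knockout and 6.90 in wild type, Sparc, a matrix glycoprotein, at 4.99 in the labelled knockout and 7.22 in wild type, and Col1a2, a collagen I chain, at 6.90 in the labelled knockout and 8.73 in wild type. Msln was below background on both arrays. Over 0, 1 and 2 h, 8 of the 12 passed limma's test as lower, beside 4.42% of all genes, but 1 did so without either 0 h array. Outside that list, 2 of the 15 largest lower differences were Acta2, a smooth muscle actin, at 5.33 in the labelled knockout and 7.94 in wild type (a difference of -0.82 on the mean of its probe sets), and Clu, the chaperone clusterin, at 5.13 in the labelled knockout and 8.10 in wild type. The part of stromal cells in the values of the list was not tested.

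Markers of other leukocytes showed no common direction within a list. Among 7 measured B cell markers, 2 were at least 2-fold higher and 1 lower, and 4 differences were positive and 3 negative. Ighm, the heavy chain of IgM, read 9.43 in the labelled knockout and 5.46 in wild type and Jchain, which joins IgM units, 7.01 in the labelled knockout and 3.78 in wild type, while Cd22, an inhibitory receptor, read 6.62 in the labelled knockout and 7.97 in wild type, Cd79a read 3.39 in the labelled knockout and 3.40 in wild type and Pax5 was below background on both arrays. The summed linear values of that list were 989 on the labelled knockout array and 380 on the wild-type array. Other probe sets of Ighm differed by -0.50 to 7.93. Among 7 eosinophil and mast cell markers, Rnase2a alone was at least 2-fold apart, at 10.06 in the labelled knockout and 3.32 in wild type. Prg2 was below background on both arrays. Summed linear values over the 13 named on the array were 1179 in the labelled knockout and 132 in wild type, apart mainly through Rnase2a. Among 7 neutrophil markers, 3 were at least 2-fold higher and 2 lower: S100a9 read 8.02 in the labelled knockout and 4.98 in wild type, while Mmp9 read 4.45 in the labelled knockout and 6.17 in wild type and S100a8 11.85 in the labelled knockout and 11.79 in wild type. Of 5 dendritic cell markers only Itgax was apart, at 9.42 in the labelled knockout and 10.92 in wild type. The part of such cells in these values was not tested.

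Several of the largest lower differences had stood since 0 h, and 4 such genes are given here. Hal, histidine ammonia-lyase, had 5.19, 5.30, 4.28 and 3.04 on the labelled knockout arrays at 0, 1, 2 and 4 h, against 10.59, 10.64, 10.16 and 8.37 on the wild-type arrays, and was at least 36.7-fold lower at 4 h. Gdpd3, a lysophospholipase D, had 5.28, 4.73, 4.23 and 3.59 on the labelled knockout arrays, against 10.24, 9.92, 9.56 and 8.88 on the wild-type arrays. Gdf3, a TGF-beta family ligand, was at 4.19 in the labelled knockout and 7.44 in wild type, and Arsb, a lysosomal sulfatase, at 4.13 in the labelled knockout and 6.78 in wild type. All 4 were lower before LPS and passed limma's test over 0, 1 and 2 h, with adjusted p between 0.00025 and 0.00271.

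Other genes among the 15 largest differences each way had also been at least 2-fold apart since 0 h, and examples follow. Ccn3, a matrix protein of the CCN family, was at 7.40 in the labelled knockout and 3.56 in wild type. Downward, Gstt1, a glutathione transferase, was at 3.63 in the labelled knockout and 6.25 in wild type, and Htra1, a secreted serine protease, at 6.29 in the labelled knockout and 8.84 in wild type. Cdkn1c, an inhibitor of cyclin-dependent kinases, was at 3.23 in the labelled knockout and 5.61 in wild type, and Slc15a2, a peptide transporter, at 3.35 in the labelled knockout and 5.71 in wild type.

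Shisa3 differed in timing. It encodes an endoplasmic reticulum protein that restrains FGF and Wnt receptors. Its values were 2.71, 2.76, 2.82 and 3.12 on the labelled knockout arrays at 0, 1, 2 and 4 h, against 2.56, 2.80, 4.81 and 7.10 on the wild-type arrays. Signal was present only in wild type at 2 and 4 h, and at 4 h the gene was at least 15.2-fold lower in the labelled knockout array. Its other probe set differed by -3.11. U90926, a transcript chosen after its values were seen, was higher after LPS in both genotypes and lower in the labelled knockout from 1 h on, with differences of 0.21, -1.42 and -1.56 at 0, 1 and 2 h and of -2.04 at 4 h. Zmynd8, a chromatin reader, was lower since 0 h on its brightest probe set. That probe set had 4.98, 4.68, 3.75 and 3.78 on the labelled knockout arrays, against 7.97, 7.92, 6.48 and 6.22 on the wild-type arrays. It was lower by 2.44 at 4 h, while the other 4 probe sets of Zmynd8 differed by -0.39 to 0.38.

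Sterol synthesis genes and respiratory chain subunits held 0 members at least 2-fold apart, and the other metabolic and redox lists 1 to 3 each. Nos2, inducible nitric oxide synthase, was at 7.63 in the labelled knockout and 6.32 in wild type and had been at background at 0, 1 and 2 h in both genotypes, and Arg2, a mitochondrial arginase, was at 6.79 in the labelled knockout and 7.89 in wild type. Gclm, a subunit of glutathione synthesis, was at 7.14 in the labelled knockout and 5.38 in wild type, and Hmox1, the heme-degrading oxygenase, at 11.21 in the labelled knockout and 9.75 in wild type. Alox15, which oxygenates arachidonic and linoleic acid, was at 6.07 in the labelled knockout and 3.88 in wild type, and Apoc1, an apolipoprotein, at 9.10 in the labelled knockout and 5.91 in wild type. Nr1h3, which encodes LXR alpha, was at 3.58 in the labelled knockout and 4.96 in wild type. Hamp, the iron hormone hepcidin, was lower at 4.98 in the labelled knockout and 6.13 in wild type. Bnip3, a mitophagy receptor, was at 7.11 in the labelled knockout and 6.01 in wild type.

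Complement and coagulation held others. Cd55, a brake on complement, was at 7.30 in the labelled knockout and 3.16 in wild type, and C2, a component of the classical pathway, at 8.84 in the labelled knockout and 6.70 in wild type. Serpinb2, the plasminogen activator inhibitor PAI-2, was at 11.29 in the labelled knockout and 9.60 in wild type, and F3, tissue factor, at 9.04 in the labelled knockout and 8.02 in wild type. Of 12 matrix proteases and inhibitors, 3 were higher and 1 lower by 2-fold, among them Mmp13 at 11.23 in the labelled knockout and 10.22 in wild type and Mmp2 at 5.84 in the labelled knockout and 4.83 in wild type.

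Several lists stayed together. None of 20 respiratory chain subunits, 16 sterol synthesis genes, 14 MHC class II and costimulation genes, 12 MHC class I and immunoproteasome genes or 20 Toll-like receptors and adaptors was at least 2-fold apart. Of 16 ribosomal protein genes 1 was lower, Rps6, at -1.15, and on the mean of its probe sets it differed by -0.53. Of 19 cell cycle and replication genes 1 was higher, Mcm3, at 1.35, which came to 0.49 on the mean of its probe sets.

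Whether a difference was particular to 4 h was tested against the other times. In limma over all 8 arrays, 0 genes (0%) passed for a departure of the 4 h difference from the mean at 0, 1 and 2 h. At an unadjusted p under 0.05 there were 770 genes, where 627 would be so by the threshold alone, and 197 genes had an estimate of at least 2-fold. With trend and robust settings 8 genes passed: Ifng, Dnmt3a, Fabp4, Fam20c, Hsph1, Efnb2, Rgs2 and Selp. Each group of this fit has 1 array and the fit 2 residual degrees of freedom. Both come from 0, 1 and 2 h, since the 4 h pair is fitted exactly, so the spread at 4 h is not measured.

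The genes of smallest p show what such departures look like. Hdac9, a class II histone deacetylase, differed by 2.05, 2.10 and 2.40 at 0, 1 and 2 h and by 3.93 at 4 h, where it was at 7.97 in the labelled knockout and 4.04 in wild type. Plpp1, a lipid phosphatase, was level until 2 h and at 6.57 in the labelled knockout and 5.10 in wild type at 4 h. Prickle1, a planar polarity protein, was at 6.16 in the labelled knockout and 3.84 in wild type after differences of 0.51, 0.75 and 0.35. Downward, Rgs2, which turns off G protein signals, was level until 2 h and at 6.45 in the labelled knockout and 8.34 in wild type at 4 h. Efnb2, the ligand ephrin B2, kept its sign but narrowed from differences of 2.84, 2.72 and 3.08 to 1.13.

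Other downward departures were genes whose difference narrowed by 4 h. Ackr3, a scavenging receptor of CXCL12, had 5.66, 4.71, 3.01 and 3.01 on the labelled knockout arrays at 0, 1, 2 and 4 h, against 2.66, 2.76, 2.79 and 2.94 on the wild-type arrays. Nt5e, the ectonucleotidase CD73, had 6.42, 6.44, 4.40 and 3.27 on the labelled knockout arrays, against 3.35, 2.76, 2.81 and 2.82 on the wild-type arrays. In both the labelled knockout values came down to the wild-type level. Aspa, an aspartoacylase, differed by 2.71, 3.83 and 2.95 at 0, 1 and 2 h and by 0.58 at 4 h, and Ablim1, an actin-binding protein, by 2.39, 2.33 and 1.22 and -0.20. In Lcn2, by contrast, the wild-type values came up, and in Ccl5 the values of both genotypes did. Ackr3 was chosen after its values were seen.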

How the data were processed

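The authors deposited log2 values for 45101 probe sets on 8 arrays, made by RMA per the submitters' processing notes, with no version given there. RMA subtracts background, forces all arrays onto 1 distribution by quantile normalization and combines the probes of each probe set, so a change in total mRNA would not show. Per the labels' protocols, Trizol was used for extraction and the NuGEN Ovation system for biotin labelling. The platform annotation gave 34958 probe sets 1 gene symbol, 932 several and 9211 none, and only the first kind was used. Of these, 34741 matched RefSeq (GRCm38.p6) by Entrez identifier, with 0 changed symbols. Genes whose second-highest value over the arrays was below 3.16, the table's median, were left out.

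Differences at 4 h were computed from the deposited values and have no test. Genotype over 0, 1 and 2 h (6 arrays) and the departure of the 4 h difference from those times (8 arrays) were tested with limma 3.58.1 in R 4.3.3, with time as a block, 2 residual degrees of freedom and Benjamini-Hochberg adjustment at 0.05. A genotype difference that varies with time counts as error in both. The labels name no separate animals, so p-values measure the spread between these arrays, whose small number limits precision. In the departure test the 2 arrays at 4 h are fitted exactly. Its p-values thus rest on the spread over 0, 1 and 2 h and hold no measure of spread at 4 h. The fits were tested on simulated data. Background was the highest of 27 bacterial control probe sets on each array, between 2.96 and 3.26.

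The genes named came from Zc3h12a, the 15 largest differences each way, the 4 members of largest difference in each of 44 gene lists, and the 5 genes each way of smallest p and of largest departure. Calcr, Nfkbia, Tnf, Il6, Il10, Il12b and Il1b were always named. Other list members are given as examples, and further genes were chosen after their values were seen. The comparison, the lists and the rules were chosen with earlier results of these data known. Alternatives were cyclic loess, centring on the median level of 10 housekeeping genes, a second housekeeping centring on deviations from gene means that was added after the first had been seen, other filters, other probe set rules, a 1.5-fold minimum, trend and robust eBayes, all 8 arrays, and leaving out arrays.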

Additional observations from a re-analysis of the deposited data

How the results depend on the processing

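No named gene or gene list at least 2-fold apart at 4 h reversed under another setting. Counts of genes at least 2-fold higher and lower were 210 and 276, and between 182 and 239 higher and 213 and 277 lower under cyclic loess, other filters and probe sets of single match. Centring each array on the median level of 10 housekeeping genes gave 134 higher and 717 lower, or 851 in all, and in the test over 0, 1 and 2 h 250 higher and 10173 lower. That median is 10.42 on the labelled knockout array and 10.10 on the wild-type array at 4 h. It rests on few genes, the reported Regnase-1 target Tfrc among them. A second centring was chosen after seeing the data of the first, on the median deviation of the same genes from their own means, and gave 212 and 274 at 4 h and 381 and 641 over 0, 1 and 2 h. On the mean of all probe sets the counts at 4 h were 144 and 162, or 306 in all, and at a 1.5-fold minimum 569 and 982, or 1551 in all. The share of higher genes was 52.9% after cyclic loess, 15.7% with the first centring and 43.6% with the second, against 43.2% as reported. Of 95 named genes at least 2-fold apart, 19 fell under 2-fold on the mean of probe sets, Zmynd8 and Acta2 among them, 13 with the first centring, Il6 and Nos2 among them, 0 with the second, 3 after cyclic loess, and 5 of 85 with probe sets of single match, Pfn2 and Syne2 among them. The genotype test over 0, 1 and 2 h called 388 higher and 554 lower, with trend and robust settings 762 and 1280, and with all 8 arrays 596 and 1094. Leaving out 1 array, which removes its partner at that time from the comparison and lowers the residual degrees of freedom, gave 77 to 256 higher and 42 to 186 lower. The lowest counts came without either 0 h array or both. Without either 1 h array it called 158 and 160. The departure test called 0 genes, 0 with the first centring, 1 with the second (Ifng), 1 on the mean of probe sets (Ifng) and 8 with trend and robust settings. The cause of these changes was not tested. Both tests set the genotypes against each other within each time, and with 1 array a group no further block by replicate number could be fitted.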

Other observations

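Genes near Zc3h12a on its chromosome often carry over from the strain in which an allele was made, so they are given here as values. Of the 25 genes on each side in RefSeq order, 37 were measured, with a median of -0.19 beside -0.05 over all genes. At 4 h 0 were at least 2-fold higher and 2 at least 2-fold lower in the labelled knockout array, beside 1.67% and 2.2% of all genes. The 2 were Csf3r, the G-CSF receptor, at 5.37 in the labelled knockout and 6.99 in wild type, and Eva1b, at 4.90 in the labelled knockout and 6.02 in wild type. Csf3r was lower over 0, 1 and 2 h as well, with a mean difference of -0.93 (SE 0.13, limma's adjusted p = 0.0234).

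Further genes that became apart after LPS were chosen after their values were seen. Ptx3, the soluble pattern recognition protein pentraxin 3, differed by 0.34, 1.80, 2.63 and 1.93 at 0, 1, 2 and 4 h. Ptch1, the receptor of hedgehog ligands, differed by 0.67, 0.24, 2.29 and 2.38. Among GTPases of the immunity-associated family, which are known mainly from lymphocytes, Gimap6 differed by 1.75 at 4 h, Gimap8 by 1.72 and Gimap9 by 1.92.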
